A study of Mus musculus with 10 samples.

Results

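The genes described here are the machinery that builds ribosomes in the nucleolus, together with Rn45s, the gene of the ribosomal RNA precursor. They were chosen by symbol, and all 41 named symbols were found among the 25277 genes of the count table. Of the 41, 40 code for proteins, and all 41 were among the 13464 genes with enough counts to be tested. The libraries were made from mouse lung cells labelled premalignant, about 500 per library, by a modified SMART-Seq2 protocol, which copies polyadenylated RNA and amplifies it by PCR. The genotypes concern APE1, the endonuclease of base excision repair, encoded by Apex1. APE1 flox/N211A (n = 3) carries the point mutant allele N211A beside an allele flanked by loxP sites, APE1 flox/flox (n = 3) carries both alleles flanked, and APE1 flox/+ (n = 4) carries 1 flanked and 1 intact allele. All animals, flox/+ included, had received Cre adenovirus, with a labelled time of 12 wk. The flanked allele of flox/+ was therefore also open to removal, and how far Cre removed any allele in each library was not measured here. The sources used here give neither the age nor the sex of the animals, nor whether replicates were separate animals, so p-values measure the spread between these samples.

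Ribosomes are assembled in the nucleolus. RNA polymerase I, guided by the promoter factor UBF (encoded by Ubtf) and the initiation factor Rrn3, transcribes the rDNA repeats into a long precursor. Small nucleolar ribonucleoproteins (snoRNPs) then modify it: box C/D particles add methyl groups to riboses and box H/ACA particles convert uridine to pseudouridine. The small subunit processome and the large subunit assembly factors cut and fold the precursor into the 2 subunits. In human cells APE1 itself is found in nucleoli and binds nucleophosmin, the product of Npm1. The study's title concerns APE1 and DNA G-quadruplexes, which are folds of guanine-rich DNA, in lung adenocarcinoma.

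Total counts per library were 8955368 to 17070817 in flox/N211A, 10672334 to 53678659 in flox/flox and 13221853 to 17707731 in flox/+. Apex1 stood at 6.43 to 12.9 CPM in flox/N211A, at 6.01, 0 and 0.571 CPM in flox/flox replicates 1 to 3 and at 4.11 to 54.0 CPM in flox/+. Here CPM are read counts scaled to a common library size. Replicates 2 and 3 of flox/flox differed most from the rest, with rank correlations to any other library of at most 0.665 and 0.649. In replicate 2, 34.2% of the tested genes had no read, against 2.82% to 16.6% in the other libraries. Xist exceeded the Y-linked genes in the 3 flox/N211A libraries, in flox/flox replicates 1 and 3 and in flox/+ replicates 1 and 3. All 10 alveolar type II, all 6 club and all 8 ciliated cell markers had reads in every library. Summed alveolar type II markers ran from 50921 to 60363 CPM in flox/N211A, from 28148 to 33173 CPM in flox/flox and from 53440 to 203829 CPM in flox/+. Summed ciliated cell markers ran from 1353 to 1753 CPM in flox/N211A, from 2440 to 7239 CPM in flox/flox and from 649.9 to 3206 CPM in flox/+. The part of this cell makeup in the results below was not tested, and in bulk samples fewer cells of a type and less RNA per cell cannot be told apart.

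No ribosome biogenesis gene passed an adjusted p of 0.05 in any comparison of genotypes by edgeR, where 0.00% of all tested genes passed in flox/flox against flox/+, 0.00% in flox/N211A against flox/+ and 0.00% in flox/N211A against flox/flox. At an unadjusted p under 0.05 there were 6, 0 and 1 of the 41 in these comparisons, where 14.4%, 1.43% and 12.0% of all tested genes passed. DESeq2 called 3, 0 and 1 of the 41 after adjustment, where it called 7.63%, 0.126% and 4.98% of all tested genes. Limma voom called 0 of the 41 in each comparison, where it called 0% of all tested genes. The gene with the lowest p was Rrs1, which in yeast works with Rpf2 to place the smallest ribosomal RNA and its proteins into the large subunit precursor. It was nearly without reads in flox/flox and read in every library of the other genotypes. Rn45s overlapped between all genotypes. The summed level of the 40 protein-coding genes lay at 1490, 1841 and 1436 CPM in flox/N211A, at 1355, 1603 and 2240 CPM in flox/flox and at 2332, 1667, 1526 and 2469 CPM in flox/+. These sums overlap, although the genes that make them up differ between libraries.

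**Figure D1:**
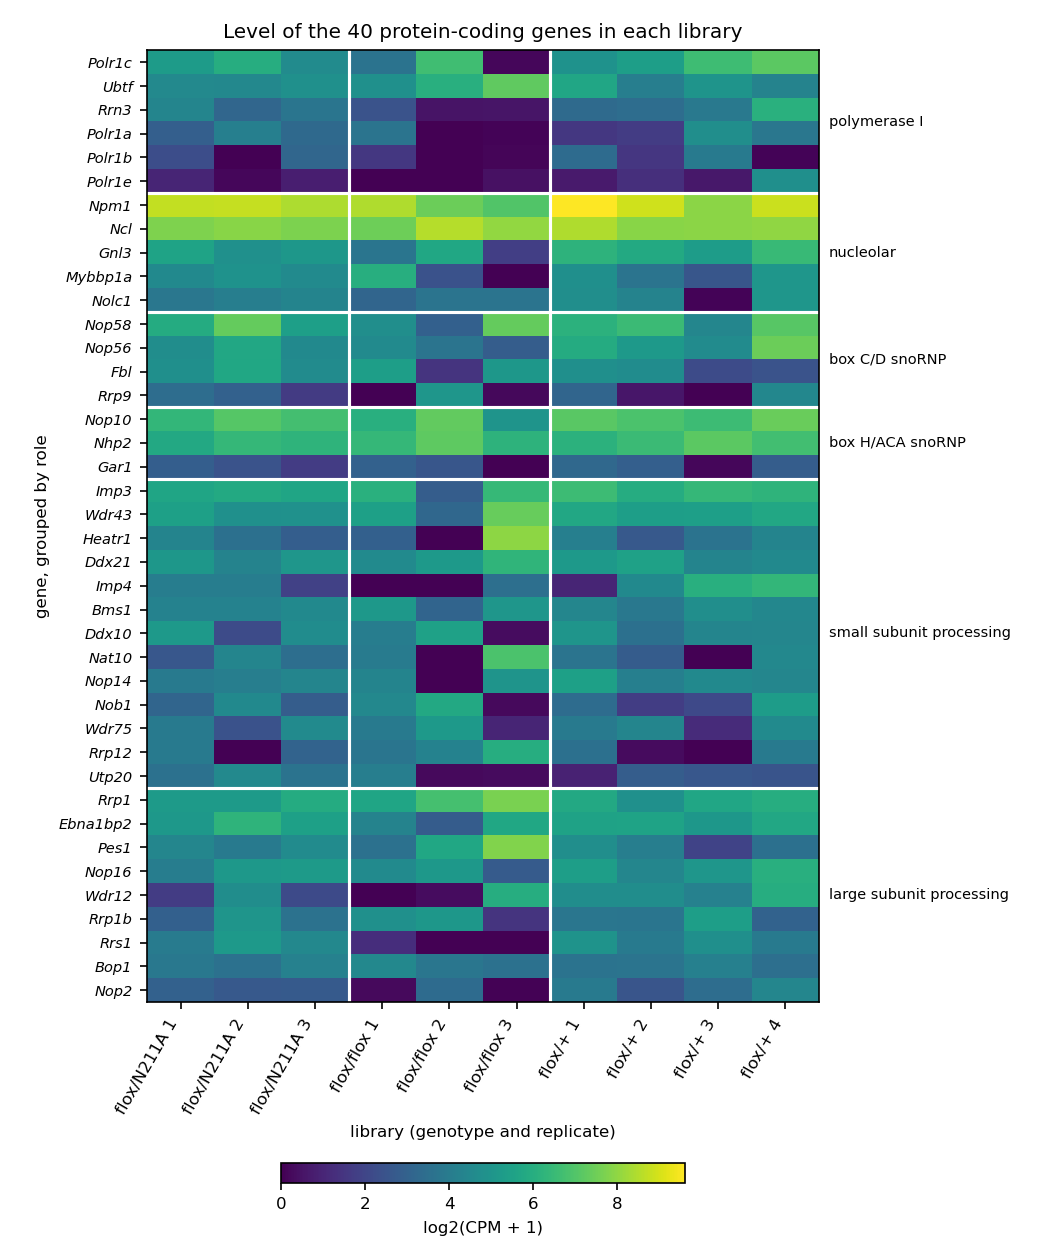
Level of the 40 protein-coding ribosome biogenesis genes (rows, grouped by role) in each library (columns, by genotype and replicate), as log2(CPM + 1) with a pseudocount of 1. Npm1 and Ncl are the brightest rows, and the dark cells are concentrated in flox/flox replicates 2 and 3, with 11 and 14 of 40 genes under 1 CPM.

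Rn45s, the gene whose transcript polymerase I makes, took 2.95%, 6.39% and 9.07% of the counts in flox/N211A replicates 1 to 3. It took 10.2%, 6.99% and 9.56% in flox/flox and 9.33%, 2.94%, 8.81% and 7.90% in flox/+. One library of flox/N211A and 1 of flox/+ were at less than 3%, and the genotypes overlapped. Flox/N211A averaged 6.14% ± 3.07 (SD, n = 3). Flox/flox averaged 8.90% ± 1.68 (SD, n = 3). Flox/+ averaged 7.25% ± 2.93 (SD, n = 4). EdgeR estimated its log2 fold change at 0.42 (SE 0.57, edgeR adjusted p = 0.796) in flox/flox against flox/+ and -0.73 (SE 0.62, edgeR adjusted p = 0.669) in flox/N211A against flox/flox. Between flox/N211A and flox/+ it was -0.31 (SE 0.58, edgeR adjusted p = 1.00), or 0.068 when flox/N211A replicate 1 was left out. Ribosomal RNA has no regular poly(A) tail and its gene is repeated, so these shares describe the reads of this protocol and not the amount of ribosomal RNA in the cells.

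**Figure D2:**
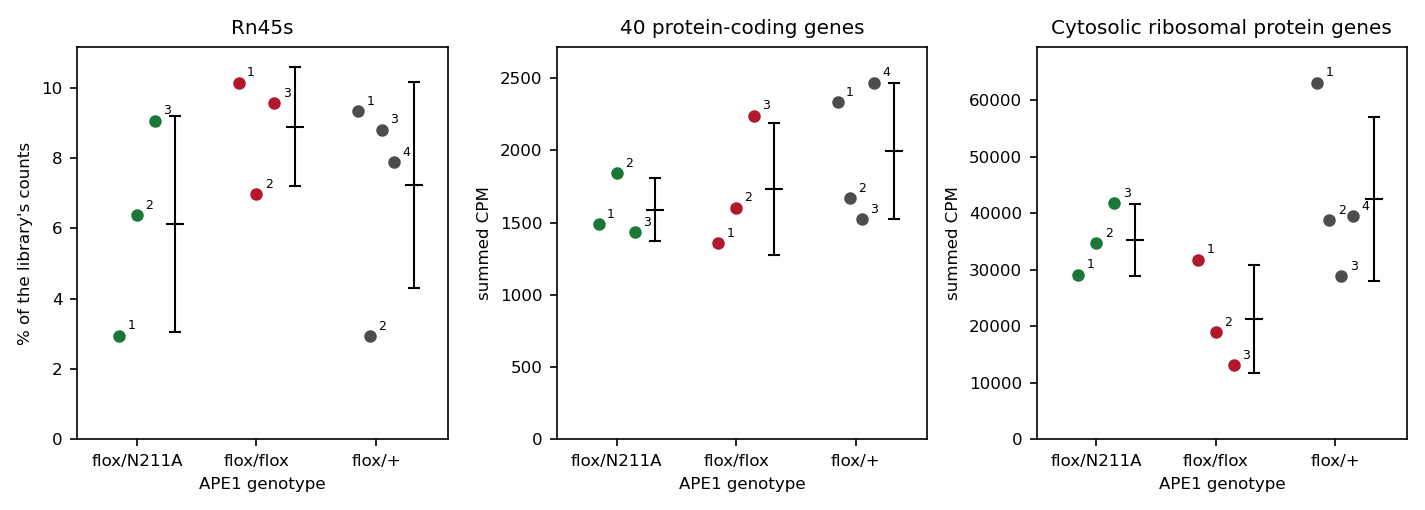
Percent of counts taken by Rn45s (left), summed CPM of the 40 protein-coding ribosome biogenesis genes (middle) and summed CPM of the ribosomal protein genes (right) in each library, with the mean and SD beside the points of each genotype. Rn45s ran from 2.94% to 10.2%, and all 3 measures overlap between genotypes.

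Promoters of the polymerase and processing genes were read for motifs, since MYC, a known activator of ribosome biogenesis genes, binds the E-box CACGTG. The RefSeq promoter table on GRCm38.p6 held an entry for 35 of the 41 genes, and the 250 bases before the first listed start were searched on both strands. The E-box, which is its own reverse complement, was found in 3 of 35 (8.57%; Imp4, Nop2 and Rrn3), against 6.02% of all 32851 promoters listed and 8.37% of those of tested genes. A G-quadruplex pattern, 4 runs of at least 3 G with gaps of 1 to 7 bases, was found in 4 of 35 (11.4%; Gnl3, Ncl, Nhp2 and Wdr43), against 16.7% of all promoters listed and 23.6% of those of tested genes. The ETS motif CCGGAAG was found in 22.9%, against 6.91% of all promoters listed and 13.5% of those of tested genes. The box CCAAT was found in 31.4%, against 33.9% and 36.6%. The shares of all promoters listed count every listed start, whereas those of the 35 genes and of tested genes count only the first. Over all 43 listed starts of the 35 genes, the E-box was found in 6.977% and the G-quadruplex pattern in 13.95%. The ETS motif was found in 18.6% of these starts and CCAAT in 25.58%. Ubtf held the G-quadruplex pattern only at listed starts other than its first. No gene had both an E-box and the G-quadruplex pattern. These are matches of letters, not sites of binding. Rrn3, Nop56 and Polr1e have a listed promoter and levels that did not overlap between flox/flox and flox/+. The window of Polr1e held neither the E-box nor the G-quadruplex pattern and is not printed. The windows of Rrn3 and Nop56 are shown, and that of Nop2 as another holder of the E-box, which stands in capitals. All are on the + strand, 5′ to 3′, at chr16:13780449-13780698 (Rrn3), chr6:125131633-125131882 (Nop2) and chr2:130274162-130274411 (Nop56), each directly before the listed start.
Rrn3: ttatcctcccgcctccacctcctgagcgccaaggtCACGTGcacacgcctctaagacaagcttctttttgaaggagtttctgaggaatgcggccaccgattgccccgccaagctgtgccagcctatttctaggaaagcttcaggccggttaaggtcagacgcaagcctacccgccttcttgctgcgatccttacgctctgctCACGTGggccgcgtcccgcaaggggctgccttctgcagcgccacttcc
Nop2: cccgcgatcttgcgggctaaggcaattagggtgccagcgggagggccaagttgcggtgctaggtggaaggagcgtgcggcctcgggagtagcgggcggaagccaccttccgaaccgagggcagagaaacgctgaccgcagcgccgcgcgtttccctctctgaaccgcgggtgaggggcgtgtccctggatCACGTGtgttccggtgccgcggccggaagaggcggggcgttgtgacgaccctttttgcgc
Nop56: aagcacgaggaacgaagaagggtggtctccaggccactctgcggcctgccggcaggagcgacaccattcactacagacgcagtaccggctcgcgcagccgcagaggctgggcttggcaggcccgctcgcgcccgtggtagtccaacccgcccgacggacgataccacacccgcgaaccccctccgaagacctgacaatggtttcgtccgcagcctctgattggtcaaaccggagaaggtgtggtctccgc
In Rrn3 the E-box begins at positions -215 and -48 and in Nop2 at -60, counted back from the listed start, whereas Nop56 holds none in this window and is printed without capitals.

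The polymerase I genes were the role with the lowest median log2 fold change in flox/flox against flox/+. Here 1 of 6 had a log2 fold change above 0, where 51.3% of all tested genes did, and the group median was -2.31, while the median of all tested genes was 0.06. For flox/N211A against flox/+, 0 of 6 exceeded 0, where 47.7% of all tested genes did, with a median of -0.79. For flox/N211A against flox/flox, 5 of 6 exceeded 0, where 47.1% of all tested genes did, with a median of 1.82. No edgeR call was made among the 6. By differences of mean log2 CPM, 1, 1 and 5 of the 6 exceeded 0, with medians of -3.29, -0.58 and 2.29. The medians of all tested genes were -0.62, 0.15 and 0.85. Polr1a, Polr1b, Polr1e and Rrn3 were under 1 CPM in both flox/flox replicates 2 and 3. The summed level of the 6 overlapped, at 80.6 to 108 CPM in flox/N211A, 56.7 to 164 CPM in flox/flox and 72.0 to 268 CPM in flox/+. The comparisons share libraries, so their directions are not independent.

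Rrn3, which joins polymerase I to the promoter (GRCm38, chr16:13780708-13814839, + strand, 18 exon blocks), stood at 19.7, 7.89 and 12.4 CPM in flox/N211A. It stood at 4.51, 0.432 and 0.447 CPM in flox/flox and at 8.89, 9.87, 13.5 and 67.1 CPM in flox/+. Every flox/flox library lay below every library of the other genotypes, and flox/+ replicate 4 lay far above the rest. EdgeR put the log2 fold change at -3.79 (SE 1.56, edgeR adjusted p = 0.312) in flox/flox against flox/+ and 2.90 (SE 1.54, edgeR adjusted p = 0.464) in flox/N211A against flox/flox. DESeq2 gave -3.83 with an adjusted p of 0.0160 for flox/flox against flox/+, so the call depends on the tool. By edgeR it was -2.59 with flox/+ replicate 4 left out and -5.79 with flox/flox replicate 1 left out. It was -2.47 with both flox/flox replicates 2 and 3 left out, a fit that takes the spread of the 1 remaining flox/flox library from the other genotypes, as does every value below with those 2 libraries left out.

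Polr1e, a polymerase I subunit (chr4:45018583-45036565), was among the genes with the fewest reads. It stood at 0.992, 0.120 and 0.769 CPM in flox/N211A, at 0, 0 and 0.348 CPM in flox/flox and at 0.598, 1.46, 0.529 and 26.8 CPM in flox/+. Flox/+ replicate 4 held most of its signal. The log2 fold change in flox/flox against flox/+ was -5.78 (SE 2.72, edgeR adjusted p = 0.346), -2.73 when flox/+ replicate 4 was left out and -9.73 when flox/flox replicate 3 was. A log2 value of this gene at 0 counts rests on the prior count, and the floor of 3 counts was 0.282 CPM in flox/flox replicate 1 and 0.259 CPM in replicate 2.

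Polr1c, a subunit that polymerases I and III share, stood at 37.7, 62.2 and 23.7 CPM in flox/N211A, at 11.5, 98.8 and 0.124 CPM in flox/flox and at 28.8, 40.4, 97.3 and 143 CPM in flox/+. The flox/flox libraries held both the lowest and the second highest of these values. Ubtf, the gene of UBF, which keeps rDNA open and loads the polymerase, stood at 22.2, 21.3 and 27.0 CPM in flox/N211A, at 26.9, 64.7 and 152 CPM in flox/flox and at 50.3, 16.1, 29.9 and 18.5 CPM in flox/+. It was the only polymerase I gene with a positive log2 fold change in flox/flox against flox/+ (1.5, SE 0.77, edgeR adjusted p = 0.383). The catalytic subunit genes Polr1a and Polr1b ran from 0 to 16.4 CPM in flox/N211A, from 0 to 11.9 CPM in flox/flox and from 0.0554 to 26.1 CPM in flox/+. Per kilobase of exon, Polr1b and Polr1a had the lowest mean levels of the 40 genes, at 0.669 and 0.731 CPM per kb over the 10 libraries.

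**Figure D3:**
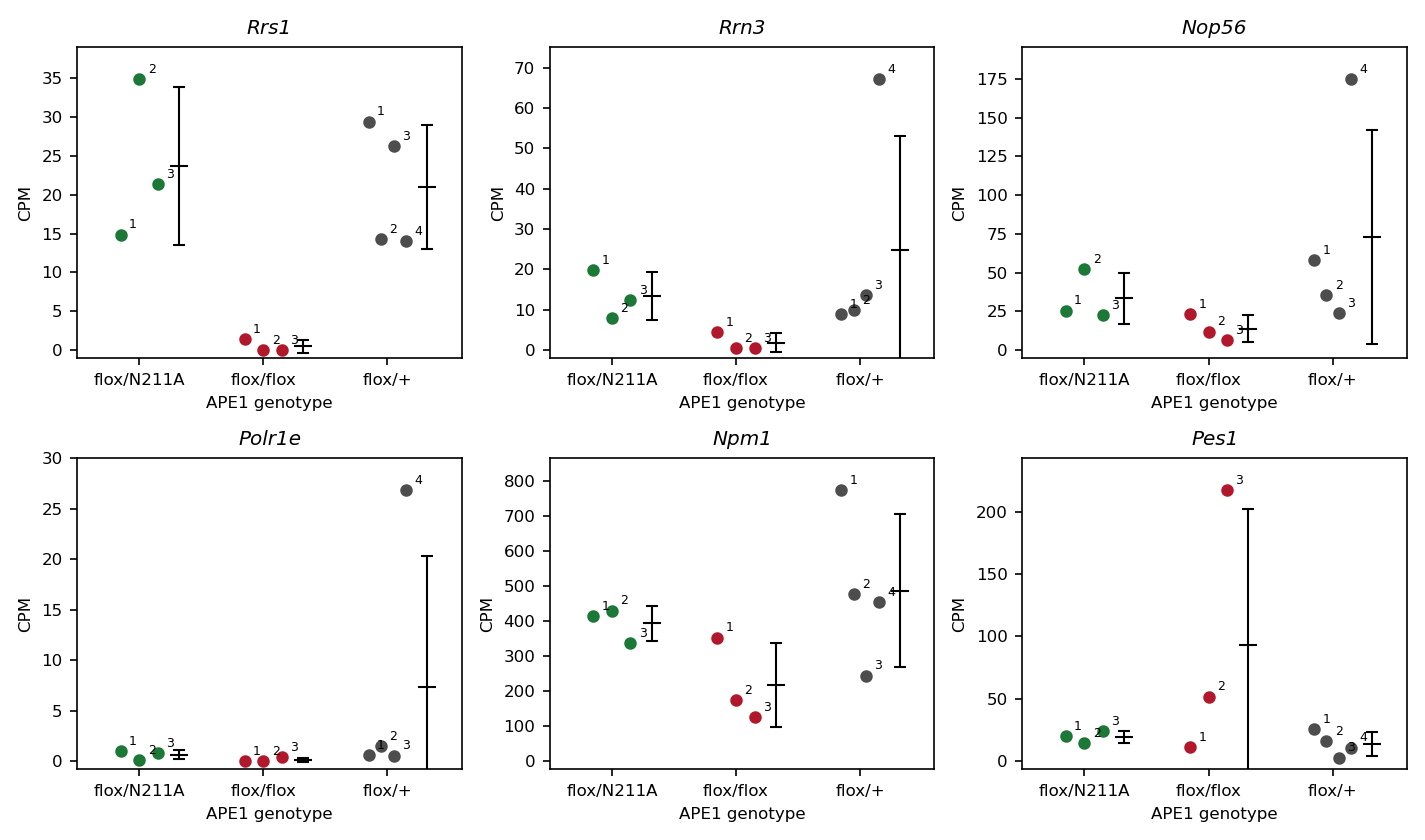
CPM of the 6 genes with an unadjusted p under 0.05 in flox/flox against flox/+ (points, 1 per library with its replicate number; bars, mean and SD, with the part of a bar far below 0 outside the axis). Rrs1, Rrn3, Nop56 and Polr1e have no overlap between flox/flox and flox/+, whereas Npm1 and Pes1 overlap.

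The abundant nucleolar proteins were led by Npm1 and Ncl. Npm1, the histone and ribosome chaperone nucleophosmin (chr11:33152287-33163206), stood at 415, 430 and 337 CPM in flox/N211A, at 352, 175 and 125 CPM in flox/flox and at 774, 477, 244 and 454 CPM in flox/+. The 2 lowest libraries were flox/flox replicates 2 and 3, but flox/flox replicate 1 lay above flox/+ replicate 3. The log2 fold change in flox/flox against flox/+ was -1.16 (SE 0.50, edgeR adjusted p = 0.315), or -0.47 when flox/flox replicates 2 and 3 were left out. Ncl, the gene of nucleolin, which binds the precursor RNA, stood at 210.8, 238 and 207 CPM in flox/N211A, at 178, 372 and 261 CPM in flox/flox and at 349, 238, 242 and 259 CPM in flox/+. Ncl had the lowest coefficient of variation over all 10 libraries of the 40 genes, 0.239, with a log2 fold change of -0.01 (SE 0.42, edgeR adjusted p = 0.996) in flox/flox against flox/+.

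The 2 genes did not move together in every library. The ratio of Npm1 to Ncl was 1.97, 1.81 and 1.63 in flox/N211A, 1.98, 0.470 and 0.478 in flox/flox and 2.22, 2.0, 1.01 and 1.76 in flox/+. Flox/flox replicates 2 and 3 were the only libraries in which Ncl exceeded Npm1. Gnl3, the gene of nucleostemin, ran from 27.4 to 45.8 CPM in flox/N211A, from 2.46 to 52.2 CPM in flox/flox and from 38.9 to 87.0 CPM in flox/+. Nolc1, a chaperone of snoRNPs, did not overlap between flox/N211A (12.9, 16.4 and 19.3 CPM) and flox/flox (7.70, 12.0 and 12.1 CPM), while flox/+ spanned 0.0661 to 32.1 CPM. Its log2 fold change in flox/N211A against flox/flox was 0.61 (SE 1.47, edgeR adjusted p = 0.905).

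Among the box C/D proteins, Nop56 and Nop58 form the core pair that positions the methyltransferase fibrillarin, encoded by Fbl. Nop56 (chr2:130274430-130279313) stood at 25.3, 52.4 and 22.4 CPM in flox/N211A, at 23.4, 11.9 and 6.19 CPM in flox/flox and at 58.3, 35.6, 24.0 and 175 CPM in flox/+. The highest flox/flox library lay just under the lowest flox/+ library, and flox/flox overlapped with flox/N211A. The log2 fold change in flox/flox against flox/+ was -2.40 (SE 0.92, edgeR adjusted p = 0.300), and DESeq2 gave an adjusted p of 0.0423. By edgeR it was -1.51 with flox/+ replicate 4 left out. Nop58 stood at 59.2, 160 and 42.0 CPM in flox/N211A, at 25.6, 6.66 and 159 CPM in flox/flox and at 70.0, 92.4, 19.96 and 136 CPM in flox/+. In flox/flox replicate 3 Nop58 was thus near the top of its range while its partner Nop56 was at its lowest. Fbl ran from 24.0 to 51.8 CPM in flox/N211A, from 1.73 to 40.8 CPM in flox/flox and from 3.57 to 26.4 CPM in flox/+.

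The box H/ACA proteins also belong to the telomerase particle. Nop10 stood at 81.4, 132 and 104 CPM in flox/N211A, at 65.0, 156 and 30.3 CPM in flox/flox and at 141, 116, 95.2 and 169 CPM in flox/+. Nhp2 stood at 53.9, 82.5 and 74.1 CPM in flox/N211A, at 82.5, 148 and 72.1 CPM in flox/flox and at 71.5, 93.0, 143 and 103 CPM in flox/+. Both overlapped between all genotypes, with log2 fold changes of -0.64 (SE 0.58) and -0.03 (SE 0.52) in flox/flox against flox/+. Per kilobase of exon these short genes came directly behind Npm1 in mean level, at 98.3 ± 38.7 and 80.7 ± 27.1 CPM per kb, with Npm1 at 142 ± 68.7 CPM per kb (mean and SD over all 10 libraries).

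Small subunit processing had 13 genes. By edgeR, 9 had a log2 fold change above 0 in flox/flox against flox/+, where 51.3% of all tested genes did. The median was 0.41, with 0.06 for all tested genes. By differences of mean log2 CPM, 4 of the 13 exceeded 0, with a median of -0.26. The median of all tested genes also moved below 0, to -0.62, so this change of sign is not particular to the group. For flox/N211A against flox/+, 4 of 13 exceeded 0 by edgeR (median -0.12), where 47.7% of all tested genes did. By mean log2 CPM it was 6 of 13 (median -0.09), and the medians of all tested genes were -0.04 and 0.15. For flox/N211A against flox/flox, 4 of 13 exceeded 0 by edgeR (median -0.31), where 47.1% of all tested genes did. By mean log2 CPM it was 9 of 13 (median 0.63). The medians of all tested genes, -0.11 and 0.85, changed sign as well. Imp3, a U3 snoRNP protein with a single exon, stood at 49.3, 56.0 and 48.3 CPM in flox/N211A, at 67.9, 6.05 and 85.8 CPM in flox/flox and at 94.3, 60.8, 83.3 and 75.6 CPM in flox/+. All 3 flox/N211A libraries lay below all 4 flox/+ libraries, with a log2 fold change of -0.62 (SE 0.74, edgeR adjusted p = 1.00). Wdr43, a component of the early processome, stood at 42.9, 27.0 and 27.7 CPM in flox/N211A, at 43.0, 8.21 and 166 CPM in flox/flox and at 53.5, 40.9, 41.4 and 52.6 CPM in flox/+.

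Several processome genes were at opposite ends in flox/flox replicates 2 and 3. Heatr1, a large scaffold protein of the processome, had 0 reads in flox/flox replicate 2 and 252 CPM in replicate 3, with 6.76 CPM in replicate 1. It ran from 6.36 to 19.3 CPM in flox/N211A and from 5.48 to 19.2 CPM in flox/+. Nat10, the acetyltransferase of ribosomal RNA, had 15.1, 0 and 116 CPM in flox/flox, 5.05 to 19.6 CPM in flox/N211A and 0 to 21.3 CPM in flox/+. Neither passed the test in any comparison, and exons of Heatr1 overlap those of Lgals8 on the opposite strand by 155 bp. Utp20, another scaffold protein, was the only gene above all flox/+ libraries in flox/N211A, at 10.9, 22.1 and 11.6 CPM, against 0.896, 6.07, 5.09 and 4.65 CPM in flox/+ (log2 fold change 1.83, SE 1.73, edgeR adjusted p = 1.00). In flox/flox it stood at 16.3, 0.173 and 0.224 CPM.

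Rrs1 (chr1:9545408-9547455, + strand, a single exon of 2048 bp) led the large subunit genes. It stood at 14.9, 34.9 and 21.4 CPM in flox/N211A, at 1.41, 0 and 0 CPM in flox/flox and at 29.4, 14.3, 26.3 and 14 CPM in flox/+. The flox/flox value of 1.41 CPM rests on 15 reads, and the floors of 3 counts in the 2 libraries at 0 were 0.259 and 0.0745 CPM. The flox/flox libraries did not overlap with either other genotype. EdgeR gave a log2 fold change of -5.51 (SE 1.92, edgeR unadjusted p = 0.0112, adjusted p = 0.280) in flox/flox against flox/+ and 5.68 (SE 1.96, edgeR unadjusted p = 0.0107, adjusted p = 0.386) in flox/N211A against flox/flox. Between flox/N211A and flox/+ it was 0.18 (SE 1.49, edgeR adjusted p = 1.00).

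Whether Rrs1 was called depended on the tool and on flox/flox replicate 1. DESeq2 gave adjusted p-values of 0.00170 in flox/flox against flox/+ and 0.00332 in flox/N211A against flox/flox. With flox/flox replicate 1 left out, the only flox/flox library with Rrs1 reads, edgeR gave adjusted p-values of 0.0205 and 0.0246 for the same comparisons. The fitted log2 fold changes were then -11.53 and 11.70. They are against a group at 0 counts, so their size rests on the fit's own prior count, which is not that of log2 CPM. With flox/flox replicates 2 and 3 left out they were -3.89 (adjusted p = 0.251) and 4.08 (adjusted p = 0.378), by edgeR. Among the libraries where Xist exceeded the Y-linked genes, Rrs1 stood at 1.41 and 0 CPM in flox/flox, against 29.4 and 26.3 CPM in flox/+. Among the others it stood at 0 CPM in flox/flox, against 14.3 and 14 CPM in flox/+. All flox/N211A libraries were in the first of these sets. The values describe these few libraries only, and no test was made within the sets.

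Pes1, Bop1 and Wdr12 encode the PeBoW complex of large subunit maturation, and the 3 genes did not share a pattern. Pes1 (chr11:3963975-3980004) stood at 20.02, 14.3 and 24.1 CPM in flox/N211A, at 10.9, 51.8 and 217 CPM in flox/flox and at 25.7, 16, 2.78 and 10.8 CPM in flox/+. The 2 highest libraries were flox/flox replicates 2 and 3. Its log2 fold change in flox/flox against flox/+ was 2.76 (SE 0.99, edgeR adjusted p = 0.293) and turned to -0.34 without those libraries, and it was 1.23 with replicate 3 alone left out. Its exons overlap those of 4930556J24Rik on the opposite strand by 138 bp. Bop1 had the second lowest coefficient of variation of the 40 genes, 0.262, and ran from 10.5 to 21.2 CPM over all libraries. Wdr12 ran from 2.25 to 25.2 CPM in flox/N211A, from 0 to 61.3 CPM in flox/flox and from 17.6 to 62.9 CPM in flox/+.

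Rrp1, a nucleolar protein known from yeast to be needed for large subunit maturation, stood at 36.2, 36.1 and 59.6 CPM in flox/N211A, at 48.9, 107 and 204 CPM in flox/flox and at 54.7, 27.1, 50.03 and 62.8 CPM in flox/+. As for Pes1, the 2 highest values belonged to flox/flox replicates 2 and 3, and the log2 fold change of 1.30 (SE 0.62) in flox/flox against flox/+ did not pass (edgeR adjusted p = 0.352). Ebna1bp2, a large subunit assembly factor, stood at 33.3, 75.6 and 42.5 CPM in flox/N211A, at 18.7, 5.96 and 50.9 CPM in flox/flox and at 44.8, 45.8, 33.2 and 53.3 CPM in flox/+. Its genotypes overlapped.

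**Figure D4:**
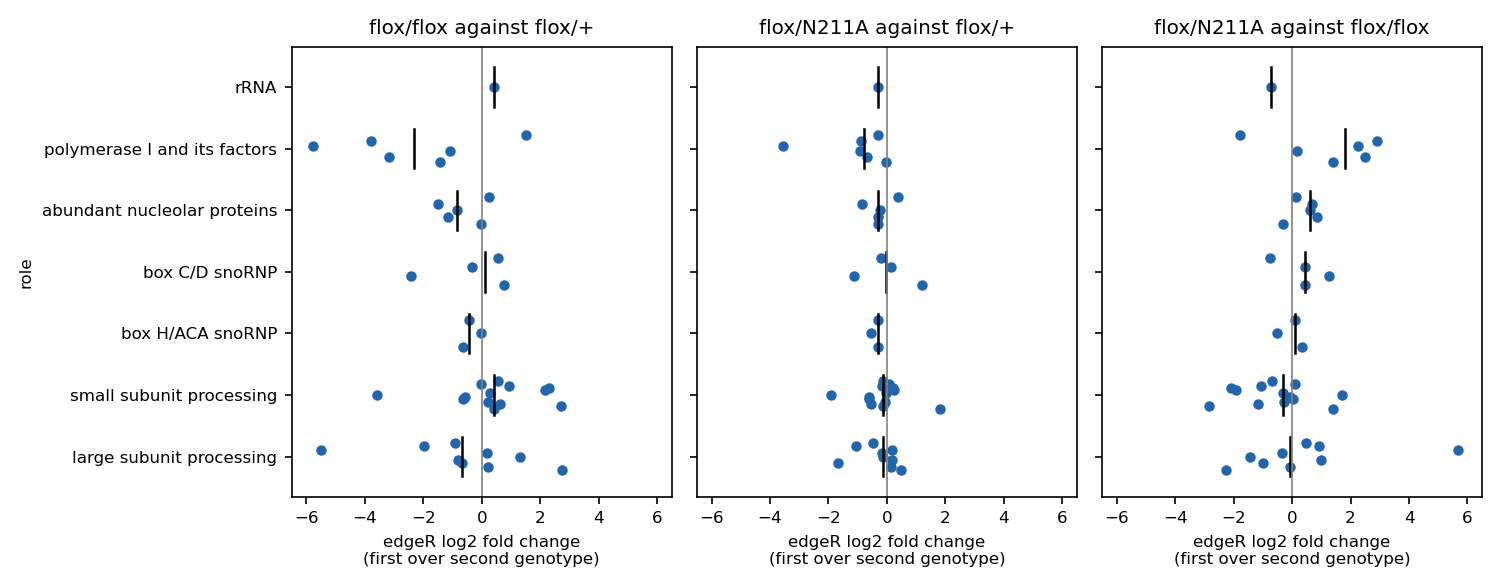
EdgeR log2 fold change of the 41 ribosome biogenesis genes, 1 point per gene, in rows by role and 1 panel per comparison, with a black bar at the median of each role. For flox/flox against flox/+, the polymerase I genes have a median of -2.31 and Rrs1 lies at -5.51 in the bottom row. No gene passed the adjusted threshold in any panel.

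In flox/flox against flox/+, 6 of the 41 genes had an unadjusted edgeR p under 0.05, where 14.4% of all tested genes did. Of these, Pes1 was higher and Rrs1, Nop56, Rrn3, Npm1 and Polr1e were lower, where 5.73% of all tested genes were higher and 8.70% lower. The share of ribosome biogenesis genes at this threshold is thus close to that of all genes. The count was 3 when flox/+ replicate 4 was left out, and 10 when flox/flox replicate 1 or flox/flox replicate 2 was. For these refits the share of all tested genes was not counted, so no background stands beside the 3 and the 10. For 4 genes, all lower in flox/flox (Polr1e, Rrn3, Nop56 and Rrs1), the genotypes had no overlapping libraries, which held for 10.6% of all tested genes (3.44% higher and 7.19% lower).

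The comparison of flox/N211A with flox/+ gave 0 of the 41 genes an unadjusted edgeR p under 0.05, where 1.43% of all tested genes had one (0.728% higher and 0.706% lower). DESeq2 also called 0 of the 41 in this comparison after adjustment. The libraries did not overlap for Utp20, higher in flox/N211A, and Imp3, lower, where 6.14% of all tested genes did not overlap (3.51% higher and 2.64% lower). Between flox/N211A and flox/flox, 1 gene, Rrs1, higher in flox/N211A, had an unadjusted edgeR p under 0.05, where 12.0% of all tested genes did (7.63% higher and 4.42% lower). This count was 8 without flox/flox replicate 1, 9 without replicate 2, 5 without replicate 3 and 2 without flox/+ replicate 3. The shares of all tested genes in these refits were not counted, so the higher counts cannot be read as particular to these genes. Rrn3, Nolc1 and Rrs1 were higher in flox/N211A without overlap, where 18.6% of all tested genes did not overlap (13.0% higher and 5.61% lower).

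Over the 40 protein-coding genes the median edgeR log2 fold change was -0.17 in flox/flox against flox/+, -0.22 in flox/N211A against flox/+ and 0.10 in flox/N211A against flox/flox. The medians of all tested genes were 0.06, -0.04 and -0.11. By differences of mean log2 CPM the medians of the 40 genes were -1.06, -0.13 and 1.1, and those of all tested genes moved to -0.62, 0.15 and 0.85. In both comparisons with flox/flox, the change of measure moved the median of all genes by more than the 40 genes differed from it.

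Genes near 0 were unevenly spread over the libraries. Under 1 CPM lay 1, 3 and 1 of the 40 genes in flox/N211A, 5, 11 and 14 in flox/flox and 3, 2, 6 and 1 in flox/+. Flox/flox replicates 2 and 3 held the largest counts. Among all tested genes the shares under 1 CPM were 9.28%, 17.8% and 8.21% in flox/N211A, 23.6%, 43.5% and 34.9% in flox/flox and 16.4%, 9.88%, 26.2% and 15.8% in flox/+. The shares of the 40 genes in flox/flox were 12.5%, 27.5% and 35.0%, the last of them next to that of all genes and the others below it. In all, 6 genes were under 1 CPM in both flox/flox replicates 2 and 3 (Polr1a, Polr1b, Polr1e, Rrn3, Rrs1 and Utp20). At the same time 9 genes exceeded 100 CPM in flox/flox replicate 3, among them Heatr1, Nat10, Pes1, Rrp1 and Ubtf. The shares of all tested genes meeting these 2 conditions were not counted, so neither number can be read as particular to these genes.

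**Figure D5:**
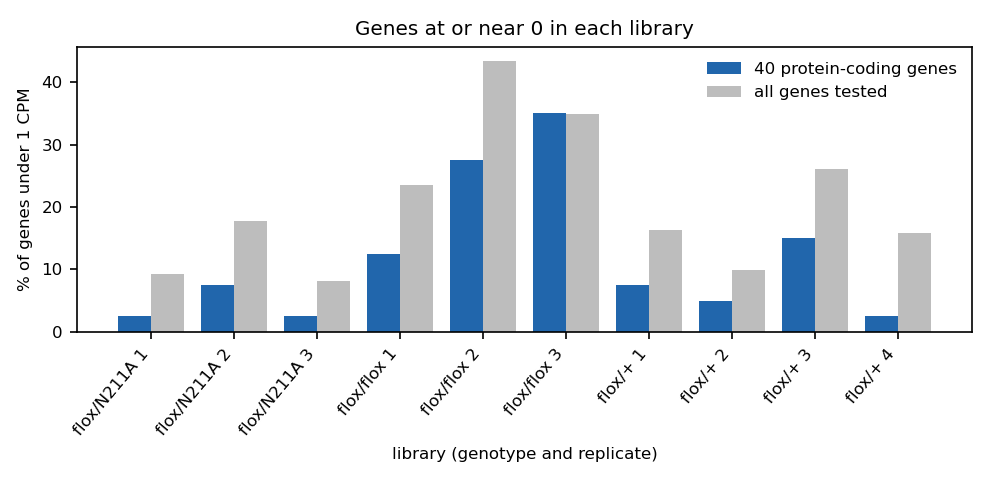
Percent of the 40 protein-coding ribosome biogenesis genes and of all tested genes under 1 CPM in each library (genotype and replicate). Flox/flox replicates 2 and 3 are highest for the biogenesis genes, at 27.5% and 35.0%, against 43.5% and 34.9% of all tested genes.

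Other ribosome biogenesis genes numbered 116 in the table, and all of them were tested. EdgeR called 0 in each comparison. DESeq2 called 10, all lower, in flox/flox against flox/+ (7.63% of all tested genes), 0 in flox/N211A against flox/+ (0.126% of all tested genes) and 6, all higher, in flox/N211A against flox/flox (4.98% of all tested genes). Setting flox/flox against flox/+, 2 were higher and 9 lower at an unadjusted edgeR p under 0.05, where 5.73% of all tested genes were higher and 8.70% lower. Of the 116, 55 exceeded 0 by edgeR, where 51.3% of all tested genes did, with a median log2 fold change of -0.12, and 37 exceeded 0 by mean log2 CPM, with a median of -1.05. The lowest p belonged to Rcl1, a processome protein, at 0, 0 and 0.124 CPM in flox/flox, against 19.9, 7.10, 1.19 and 25.9 CPM in flox/+ (log2 fold change -7.86, SE 2.34, edgeR adjusted p = 0.241). Dis3, a nuclease of the RNA exosome, stood at 0, 0 and 0.0497 CPM in flox/flox, against 14.5, 1.41, 0.463 and 8.64 CPM in flox/+ (edgeR adjusted p = 0.263). Tbl3, another processome protein, stood at 0.751, 0 and 0.0745 CPM in flox/flox, against 10.8, 4.12, 48.3 and 9.25 CPM in flox/+ (edgeR adjusted p = 0.270). As with Rrs1, all 3 were low in every flox/flox library, replicate 1 included.

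Between flox/N211A and flox/+, 41 of the 116 exceeded 0 by edgeR (median -0.33) and 52 by mean log2 CPM (median -0.16). At an unadjusted edgeR p under 0.05 there were 0, where 1.43% of all tested genes passed, and the genes with the lowest p were Bud23, Ruvbl1 and Snu13 (edgeR adjusted p = 1.00 each). Their log2 fold changes were -1.77, -1.35 and -1.28. Between flox/N211A and flox/flox, 54 exceeded 0 by edgeR (median -0.20) and 80 by mean log2 CPM (median 1.52). As for all tested genes (medians -0.11 and 0.85), the sign for the 116 thus changed with the measure. At an unadjusted edgeR p under 0.05, 6 were higher and 7 lower, where 7.63% and 4.42% of all tested genes were, and Rcl1, Dis3 and Ruvbl1 had the lowest p. Their log2 fold changes were 7.0, 7.98 and -2.05 (edgeR adjusted p = 0.386 each). Rcl1 stood at 8.39, 9.57 and 4.34 CPM and Dis3 at 8.57, 8.97 and 4.69 CPM in flox/N211A.

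The ribosomal protein genes encode what the machinery assembles. Of 84 tested, 2 had a log2 fold change above 0 in flox/flox against flox/+ (median -0.97), where 51.3% of all tested genes did. Of the 40 biogenesis genes, 17 did. For flox/N211A against flox/+ it was 19 of the 84 (median -0.22), where 47.7% of all tested genes exceeded 0. For flox/N211A against flox/flox it was 81 of the 84 (median 0.67), where 47.1% of all tested genes did. EdgeR called 0 of the 84 in each comparison, with 25 at an unadjusted p under 0.05 in flox/flox against flox/+, all lower, where 8.70% of all tested genes were lower. DESeq2 called 5 in that comparison, all lower, where it called 7.63% of all tested genes, and 0 in the other two. By mean log2 CPM the medians of the 84 were -1.05, -0.15 and 0.91. The medians of all tested genes were 0.06, -0.04 and -0.11 by edgeR and -0.62, 0.15 and 0.85 by mean log2 CPM. The summed level of the ribosomal protein genes averaged 35194 ± 6357 CPM over the 3 flox/N211A libraries (mean ± SD). It averaged 21293 ± 9512 CPM over the 3 flox/flox libraries and 42548 ± 14534 CPM over the 4 flox/+ libraries. By library it stood at 31751, 18971 and 13157 CPM in flox/flox and at 63094, 38746, 28842 and 39510 CPM in flox/+. Flox/flox replicates 2 and 3 were the lowest, while flox/flox replicate 1 lay above flox/+ replicate 3. Proliferation genes, which often move with ribosome production, had 17 tested and edgeR medians of -1.29, -0.28 and 0.46 in flox/flox against flox/+, flox/N211A against flox/+ and flox/N211A against flox/flox. By mean log2 CPM their medians were -1.07, -0.09 and 0.58. The 10 genes of MYC and its partners had edgeR medians of -0.09, -0.44 and -0.24 in these comparisons. By mean log2 CPM they were -1.49, -0.15 and 1.09, so the last changes sign with the measure, as that of all tested genes does. No test of the difference between lists was made.

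Apart from the level, some of the genes share a position with other products of the pathway. Of the 40 protein-coding genes, 5 hold annotated snoRNA genes within their bounds, 18 snoRNAs in all (Nop56 5, Nop58 4, Ncl 3, Gnl3 3 and Wdr43 3), in GENCODE M21. That is 12.5%, against 1.85% of the 12407 protein-coding genes tested. Reads of such short RNAs were not separated here. The 40 genes lie on 17 chromosomes, and 14 have exons that overlap a gene on the opposite strand by 5 to 209 bp, so reads there are uncertain because no source used here states the strand setting.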

How the data were processed

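The values are the authors' deposited read counts per gene, whole numbers in 1 table with no normalization. Per the submitters' processing notes, the tools were Trim Galore 0.5.0, HISAT2 2.1.0, featureCounts 1.6.4 and DESeq2, with the build mm10. No source used here states the gene annotation, the strand setting or the handling of reads with several positions.

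From these counts edgeR 4.0.16 (R 4.3.3) was run with filterByExpr, TMM scaling and the quasi-likelihood test, two-sided, on all 10 libraries with no covariate beside genotype. P-values were adjusted by Benjamini-Hochberg over 13464 genes, with 0.05 as the threshold. The biological coefficient of variation was 1.24. CPM are TMM-scaled, log2 CPM carry a prior count of 2, and SE is the size of the log2 fold change divided by the root of F. The fitting code was tested on data simulated with a far smaller dispersion than the common dispersion of 1.53 found here. That test therefore does not measure what the fit could detect at the spread of these libraries. Floors of 3 counts cover counting error only, since reads carried no molecular identifiers. No pair of replicates agreed within sampling noise. Levels per kilobase used exons of GENCODE M21 on GRCm38.

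Per-library values were given for Rn45s, for the 2 genes of each role with the highest mean CPM, and for up to 6 genes with the smallest unadjusted p under 0.05 per comparison. Of the other ribosome biogenesis genes, up to 3 per comparison were named. Utp20, Heatr1, Nat10, Gnl3, Nolc1, Fbl, Bop1, Wdr12, Polr1a and Polr1b were described after their values were seen. Members and lists were chosen with earlier results of these data known. Alternatives were DESeq2 1.42.0, limma 3.58.1 voom, other scalings and filters, added terms, a replicate block and each library left out.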

Additional observations from a re-analysis of the deposited data

Results flagged for a closer look

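In flox/+, the only genotype with 4 libraries, 42 measures were examined for 1 library far from the rest, and 4 met the criterion. In each of the 4 the gap to the nearest library, relative to the whole range, exceeded Dixon's critical value. Chance would give about 2.1 if the measures were independent and their values normally distributed. The measures share the same 4 libraries and the flagged values are unlogged CPM, so this figure cannot decide whether 4 is an excess. Polr1e stood at 26.8 CPM in flox/+ replicate 4, against 0.529 to 1.46 CPM in the other 3 libraries. Rrn3 stood at 67.1 CPM in flox/+ replicate 4, against 8.89 to 13.5 CPM. Wdr12 stood at 62.9 CPM in flox/+ replicate 4, against 17.6 to 25.1 CPM. Rrp1b, a nucleolar protein related to Rrp1, stood at 41.04 CPM in flox/+ replicate 3, against 7.15 to 12.6 CPM.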

How the results depend on the processing

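The numbers of genes called were 0 in every comparison, with 3 by DESeq2 in flox/flox against flox/+ (Rrs1, Nop56 and Rrn3) and 1 by DESeq2 in flox/N211A against flox/flox (Rrs1). DESeq2 called 7.63% and 4.98% of all tested genes in these comparisons. Over libraries left out in turn the numbers called by edgeR ran from 0 to 1 in both, the 1 being Rrs1 without flox/flox replicate 1. Genes with an unadjusted p under 0.05 in flox/flox against flox/+ numbered 12 with the number of genes detected as a term, 3 with the Xist split as a term, 3 in a fit of only the 2 genotypes compared, and 3 to 10 with libraries left out. In flox/N211A against flox/+ they numbered 1 by voom. In flox/N211A against flox/flox they numbered 5 by DESeq2, 4 without a low-count filter, 6 with genes detected, 2 with the Xist split, 3 without flox/flox replicates 2 and 3, 0 in a fit of only the 2 genotypes and 1 to 9 with libraries left out. The median log2 fold change of the 41 genes in flox/flox against flox/+, -0.03, was -1.04 by voom, -0.96 with genes detected, -0.33 with the Xist split, -0.41 without flox/flox replicates 2 and 3, -1.03 by differences of mean log2 CPM and -0.37 to -0.026 with libraries left out. In flox/N211A against flox/flox, 0.09 became 0.77 by voom, 0.96 with genes detected and 0.99 by differences of mean log2 CPM. Rn45s in flox/N211A against flox/+ ran from -0.73 to 0.068 with libraries left out, and Pes1 in flox/flox against flox/+ was -0.34 without flox/flox replicates 2 and 3. The cause of these changes was not tested. The shares of all tested genes at an unadjusted p under 0.05, or called with a library left out, were not counted. These counts can therefore not be read as particular to the ribosome biogenesis genes. Of 423 alternative values, 383 kept their direction and side of the threshold or moved less than the limits used.

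Deviations from the genotype means were weakly correlated between samples sharing a replicate number (-0.065 to 0.098). Between samples with different numbers the correlations were -0.093 to 0.077. With so few libraries per genotype these values cannot decide whether the numbers pair the samples. With the number as a replicate block in 9 libraries, genes with an unadjusted p under 0.05 in flox/flox against flox/+ numbered 2, and the median in flox/N211A against flox/flox was 0.58. The share of all tested genes at that threshold was not counted in the fit with the block.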
